A study of Homo sapiens with 6 samples.

Results

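The cell cycle genes of S and G2/M phase were followed as a group of 46 genes in a human ovarian cancer cell line, chosen as named genes of DNA replication, mitosis and the control of the G1 to S transition. They were sorted by textbook role into 18 S-phase genes, 4 G1 regulators and 24 mitotic genes. All 46 were among the 60498 genes of the deposited table, and all 46 passed the filter on low values, a mean of at least 10 counts, which left 15126 genes for analysis.

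RNA was sequenced from SKOV3 cells, an established ovarian cancer line, to ask how the alleles of STING1 shape the response to its ligand 2'3'-cGAMP. STING1 is the receptor for this cyclic dinucleotide, and HAQ is a common STING1 haplotype that differs from the WT allele by several amino acid changes. Each of 3 lines gave 1 control library and 1 cGAMP library, 6 libraries in all, so no line and treatment had a replicate. Total counts ran from 12444822 in WT/- with cGAMP to 17608467 in WT/HAQ control.

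The WT/HAQ cells were the parental SKOV3 cells, which carry 1 allele of each kind. WT/- cells kept the WT allele and HAQ/- cells kept the HAQ allele, the other having been deleted with a pair of CRISPR guides. Each edited line was a single clone obtained by limiting dilution, so that genotype and clone cannot be told apart. The cGAMP libraries came from cells given 10 μg/mL of cGAMP for 30 min in a permeabilization buffer with digitonin, then rested for 4 h in fresh medium. Whether the control cells received the buffer is not given in the sources used here.

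STING1 itself was read first as a check of the labels. Its normalized counts, which are counts scaled to a common library size, were 669 in WT/HAQ control, 353 in WT/- control and 213 in the HAQ/- control. In the cGAMP libraries they were 403 in HAQ/-, 553 in WT/- and 1780 in WT/HAQ. STING1 was thus lower in both edited lines, which the labels give as lacking an allele, than in the parental line under either treatment. These counts do not tell the WT allele from the HAQ allele, so they do not check which edited line is which. Of the interferon-induced genes IFIT1, IFIT2, IFIT3, ISG15, MX1 and OASL, each was far higher in the cGAMP library of every line. IFIT1 had 104.3 normalized counts without and 27734 with cGAMP in WT/HAQ, 234.2 and 25399 in WT/-, and 151.8 and 8042 in HAQ/-.

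The cells also carried the markers of their type. All 10 epithelial and ovarian cancer markers had a mean count of at least 10, with ERBB2 the most abundant, and their summed counts, not scaled for library size, ran from 54551 in WT/- with cGAMP to 127999 in WT/HAQ control. None of the 5 leukocyte markers reached that mean, and their sum was between 2 and 8 counts in each library, with CD14 the most abundant and PTPRC at 0 to 3. Of 5 fibroblast markers 4 reached it, led by COL1A1, with sums from 1513 to 2356, while PDGFRB stood at 0 to 3. Of 5 endothelial and red cell markers 1 reached it, PECAM1, with sums from 11 to 49 and HBB at 0 in every library.

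In the control libraries most epithelial and ovarian markers were lower in both clones than in WT/HAQ, by very different sizes. CDH1, ERBB2 and PAX8 were exceptions, as was WT1 in HAQ/-. The keratin KRT19 had 5629 normalized counts in WT/HAQ control and 3605 with cGAMP, 364.0 and 368.6 in WT/-, and 413.5 and 342.6 in HAQ/-. Its control log2 ratio to WT/HAQ was -3.95 in WT/- and -3.77 in HAQ/-. For the keratin KRT7 these ratios were -0.57 and -1.70, for KRT8 -0.15 and -0.66, for KRT18 -0.17 and -0.40, and for the adhesion protein EPCAM -0.79 and -0.81. The cadherin CDH1 had -0.04 and -0.13, and ERBB2 had -0.39 and 0.03. PAX8, a transcription factor of the Müllerian lineage, was higher in WT/- control and lower in HAQ/- control than in WT/HAQ control (0.48 and -0.55), and in the cGAMP libraries it was higher in both clones (1.34 and 0.74). MUC16, the ovarian cancer antigen CA125, was low throughout, with 33 and 72 unscaled counts in WT/HAQ, 7 and 14 in WT/-, and 1 and 4 in HAQ/-. The transcription factor WT1 had 2 to 25 unscaled counts in each library. Its control ratio of HAQ/- over WT/HAQ was -0.31, with a counting interval of -1.54 to 0.92. The collagen gene COL1A2 had 205.1 and 193.9 normalized counts in WT/HAQ, 524.5 and 542.3 in WT/-, and 636.8 and 632.7 in HAQ/-, so that it was higher in both clones. COL1A1 had control log2 ratios to WT/HAQ of 0.36 in WT/- and 0.31 in HAQ/-. The fibroblast markers DCN (0.41 and 0.18) and LUM (0.26 and 0.51) had ratios above 0 in both clones. The counting interval of DCN in HAQ/- included 0 (-0.11 to 0.48), and that of LUM in WT/- began at 0.00 (0.00 to 0.53). In the cGAMP libraries DCN was lower in HAQ/- than in WT/HAQ (-0.53). The part of these marker differences in the line differences of the cell cycle genes was not tested.

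Cells enter S phase when cyclin D and cyclin E kinases inactivate RB proteins and free E2F factors, which drive genes for nucleotide supply, origin licensing and the replication fork. Genes of G2 and M phase are held down earlier in the cycle by the DREAM complex and later driven by MYB and FOXM1 through the CHR element and nearby CCAAT boxes, which bind NF-Y. MYC and cyclin D1 promote entry into the cycle, whereas CDKN1A (p21) and CDKN1B (p27) inhibit cyclin-dependent kinases.

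Promoter sequences are shown because S-phase and mitotic genes are known for different promoter elements. The sequences are from RefSeq (GRCh38.p14), 5′ to 3′ on the strand of the gene, and each stretch lies within the 250 bases before the start site. Of the 46 genes, 36 matched an entry, and MCM4, MCM5, CCNE2, CCND1, MYC, AURKA, TTK, TPX2, UBE2C and BIRC5 did not. For the S-phase genes the capitals mark the E2F motif, searched as TTTCCCGC, TTTCGCGC, TTTGCCGC and TTTGGCGC on both strands. E2F1 at chr20:33686386-33686438, minus strand, has 2 matches, and PCNA at chr20:5126654-5126701, minus strand, and GINS2 at chr16:85688958-85689005, minus strand, have 1 each.
E2F1: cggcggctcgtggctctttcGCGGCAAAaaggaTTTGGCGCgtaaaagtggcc
PCNA: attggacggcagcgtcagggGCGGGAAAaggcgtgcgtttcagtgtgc
GINS2: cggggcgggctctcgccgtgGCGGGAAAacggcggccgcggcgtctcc

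For the mitotic genes the capitals mark the CHR, searched as TTTGAA and TTTAAA, and the CCAAT box, searched as CCAAT, both on either strand. MKI67 lies at chr10:128126424-128126541 on the minus strand, CCNB1 at chr5:69167043-69167145 on the plus strand and PLK1 at chr16:23678721-23678885 on the plus strand. The last run of capitals in MKI67 holds a CHR and a CCAAT box on the opposite strand that overlap.
MKI67: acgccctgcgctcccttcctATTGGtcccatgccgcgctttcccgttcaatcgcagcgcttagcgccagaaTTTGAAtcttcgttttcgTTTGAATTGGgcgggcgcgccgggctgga
CCNB1: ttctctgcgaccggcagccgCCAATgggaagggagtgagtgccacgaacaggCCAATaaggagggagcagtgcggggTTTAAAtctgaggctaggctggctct
PLK1: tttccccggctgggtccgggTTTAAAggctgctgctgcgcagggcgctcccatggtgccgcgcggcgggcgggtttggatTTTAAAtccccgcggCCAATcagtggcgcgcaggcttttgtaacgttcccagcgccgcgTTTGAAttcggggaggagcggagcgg

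An E2F motif was present in 9 of the 15 S-phase promoters found (60%), in 1 of 19 mitotic promoters (5.26%) and in 2.79% of all 27305 promoters. The CHR was present in 3 of 15 S-phase promoters (20%), in 16 of 19 mitotic promoters (84.2%) and in 22.1% of all promoters. A CCAAT box was present in 11 of 15 S-phase promoters (73.3%), 17 of 19 mitotic promoters (89.5%) and 33% of all promoters. Both the CHR and the CCAAT box were found in 14 of 19 mitotic promoters (73.7%), against 2 of 15 S-phase promoters (13.3%) and 7.85% of all. Of the G1 regulators only CDKN1A and CDKN1B had an entry, of which 0 held the E2F motif and 1, CDKN1B, held both the CHR and a CCAAT box. A match is a run of letters in this window and does not show that a factor binds there.

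More of these genes were called between lines than between treatments. Differences between lines were tested with edgeR's quasi-likelihood F test over all 6 libraries, with the treatment as a covariate and Benjamini-Hochberg adjustment over all 15126 genes. Between HAQ/- and WT/-, 31 of the 46 genes were higher in HAQ/- at an adjusted p under 0.05, against 7.94% of all genes tested. Of these 31, 12 were S-phase genes, 18 were mitotic and 1 was the G1 regulator CCND1. No cell cycle gene was lower in HAQ/- than in WT/- by this test, against 11.1% of all genes. At an unadjusted p under 0.05, 37 were higher (16.2% of all genes) and 1 was lower (20% of all genes). DESeq2 called 28 higher (5.9% of all genes) and 1, CDKN1A, lower (9.48%). Without the treatment term edgeR called 16 of the 46 higher, against 2.25% of all genes.

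Each clone was also compared with the parental line. In WT/-, 8 of the 46 genes were lower than in WT/HAQ (3.81% of all genes were). These were the S-phase genes MCM4, MCM5, TYMS, RRM1, RRM2 and E2F1, the G1 regulator CCND1 and the mitotic gene TOP2A. None of the 46 was higher by edgeR (4.99% of all genes). At an unadjusted p under 0.05, 25 were lower, against 13.4% of all genes, and 1 was higher, against 15.4%. Of the 25, 15 were S-phase genes and 9 were mitotic. DESeq2 called 0 higher (5.26%) and the same 8 lower (3.44%). The 8 calls were 16 when the HAQ/- line was left out (7.09% of all genes), and 3 without the treatment term (0.873%).

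In HAQ/-, 1 of the 46 genes was higher than in WT/HAQ, the mitotic gene CENPF (0.377% of all genes were higher). None was lower by edgeR (0.846% of all genes). At an unadjusted p under 0.05, 21 were higher, of which 19 were mitotic, against 8.03% of all genes, and 2 were lower, against 10.7%. DESeq2 called 8 higher, all of them mitotic (1.28% of all genes), and 1, CDKN1A, lower (2.67%). With the WT/- line left out edgeR called 0 of all 15126 genes in either direction, and at the unadjusted p 17 of the 46 were higher (6.08% of all genes) and 2 lower (7.7%). Comparisons of either clone with WT/HAQ share the parental libraries. In bulk RNA, fewer cells in a phase of the cycle and less RNA of these genes per cell cannot be told apart.

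The control libraries were also compared by size alone, without a test. The median log2 ratio of WT/- over WT/HAQ was -0.49 for the S-phase genes and -0.20 for the mitotic genes, with 0.00 over all genes. For HAQ/- over WT/HAQ it was 0.12 for the S-phase genes and 0.42 for the mitotic genes, with -0.02 over all genes. For HAQ/- over WT/- it was 0.59 and 0.67, with 0.00 over all genes.

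**Figure D1:**
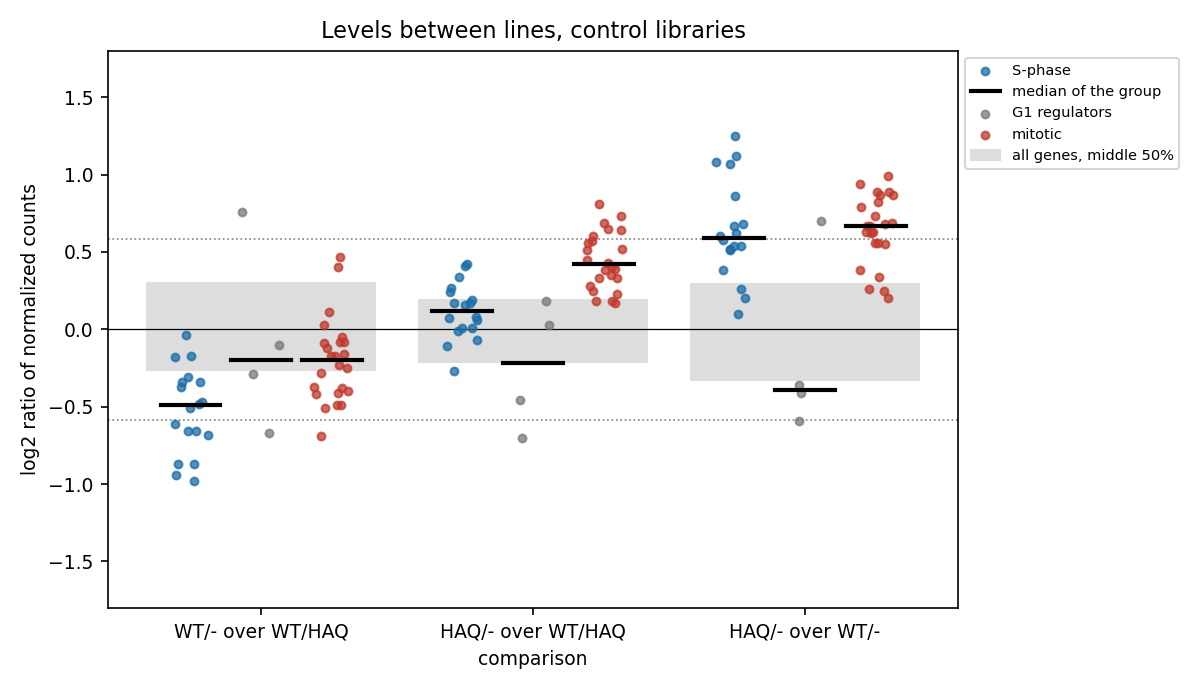
Log2 ratio of normalized counts between the control libraries of 2 lines (y axis) for each comparison (x axis), 1 point per gene, with the median of each role as a black bar, the middle 50% of all genes in grey and dotted lines at 1.5-fold. The S-phase median is -0.49 for WT/- over WT/HAQ and the mitotic median is 0.42 for HAQ/- over WT/HAQ, while both medians lie above 0.5 for HAQ/- over WT/-.

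A size of 1.5-fold or more was used to count genes where single libraries were compared. WT/- control was below WT/HAQ control by this size for 10 of the 46 genes, 8 of them S-phase genes (9.9% of all genes), and above it for 1, CDKN1B (13% of all genes). HAQ/- control was above WT/HAQ control for 6 genes, all mitotic (7.4% of all genes), and below it for 1, CDKN1A (8.62% of all genes). HAQ/- control was above WT/- control for 26 genes, 9 S-phase and 16 mitotic with CCND1 (11.7% of all genes), and below it for 1, CDKN1B (15.3% of all genes).

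The cGAMP libraries are a further set from the same lines. Their median log2 ratio of WT/- over WT/HAQ was -0.53 for the S-phase genes and -0.15 for the mitotic genes, and that of HAQ/- over WT/HAQ was -0.08 and 0.45. For HAQ/- over WT/- it was 0.66 and 0.56. As in the control libraries, the S-phase median of WT/- over WT/HAQ was below 0. The mitotic median of HAQ/- over WT/HAQ was above 0 under both treatments. The S-phase median of HAQ/- over WT/HAQ differed in sign, at 0.12 in the control and -0.08 in the cGAMP libraries. HAQ/- was above WT/- in both the control and the cGAMP libraries for all 18 S-phase genes and for 23 of 24 mitotic genes, which held for 37.1% of all genes. The exception was AURKB, the kinase of the chromosomal passenger complex, with a log2 ratio of 0.99 in the control libraries and -0.04 in the cGAMP libraries.

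**Figure D2:**
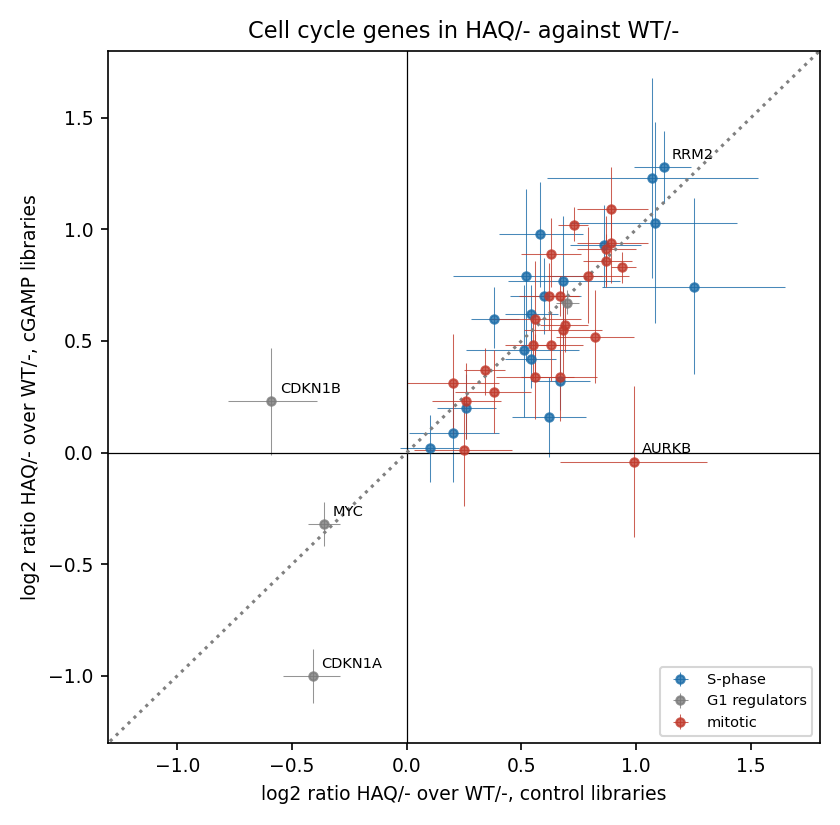
Log2 ratio of HAQ/- over WT/- in the control libraries (x axis) and in the cGAMP libraries (y axis), 1 point per gene coloured by role, with 95% Wilson intervals for counting error only. RRM2 lies at 1.12 and 1.28, most S-phase and mitotic genes lie above 0 on both axes, and CDKN1A and MYC lie below 0 on both.

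The effect of cGAMP over the 3 lines was tested with the line as a block, which leaves 2 residual degrees of freedom. Without replicates, a response that differs between lines adds to the error of this test, so a gene that was not called may still respond. By edgeR none of the 46 genes was higher and none was lower with cGAMP at an adjusted p under 0.05, against 2.27% and 0.959% of all genes. At an unadjusted p under 0.05, 3 were higher (CCNE2, CDKN1A and PCNA) and 4 were lower (MYC, TTK, RRM2 and MCM7), shares of the 46 below the 11.6% and 13.6% of all genes. DESeq2 called CDKN1A higher and MYC lower, against 5.2% and 3.93% of all genes. With the HAQ/- line left out edgeR called CDKN1A and PCNA higher and MYC lower, against 8.5% and 8.65% of all genes. Whether the response of a gene differed between lines could not be tested with 1 library per line and treatment.

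Within single lines few of the genes passed 1.5-fold with cGAMP. In WT/HAQ 2 of the 46 were raised by this size, CDKN1A and CCNE2 (12.9% of all genes), and 1 was lowered, MYC (12.3%). In WT/- 3 were raised, CDKN1A, GINS2 and AURKB (11.9%), and 1 was lowered, MYC (8.79%). In HAQ/- 1 was raised, CCNE2 (6.77%), and 0 were lowered (5.79%). In each line and direction the share of the 46 genes was below that of all genes.

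The S-phase genes had a median above that of all genes with cGAMP in the parental line, where 1 library is set against 1. Their median log2 fold was 0.22 in WT/HAQ but 0.01 in WT/- and 0.03 in HAQ/-, with medians over all genes of -0.01, 0.00 and -0.01. In WT/HAQ 14 of the 18 were above 0, against 10 in WT/- and 11 in HAQ/-. Of all genes, 7338 of 15114 were above 0 in WT/HAQ, 7547 of 15099 in WT/- and 7208 of 15072 in HAQ/-. The mitotic medians were -0.03, 0.02 and -0.02 in the same order of lines, near those of all genes. Of the 46 genes, 13 were higher in all 3 lines and 7 were lower in all 3, against 23.8% and 26.5% of all genes.

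**Figure D3:**
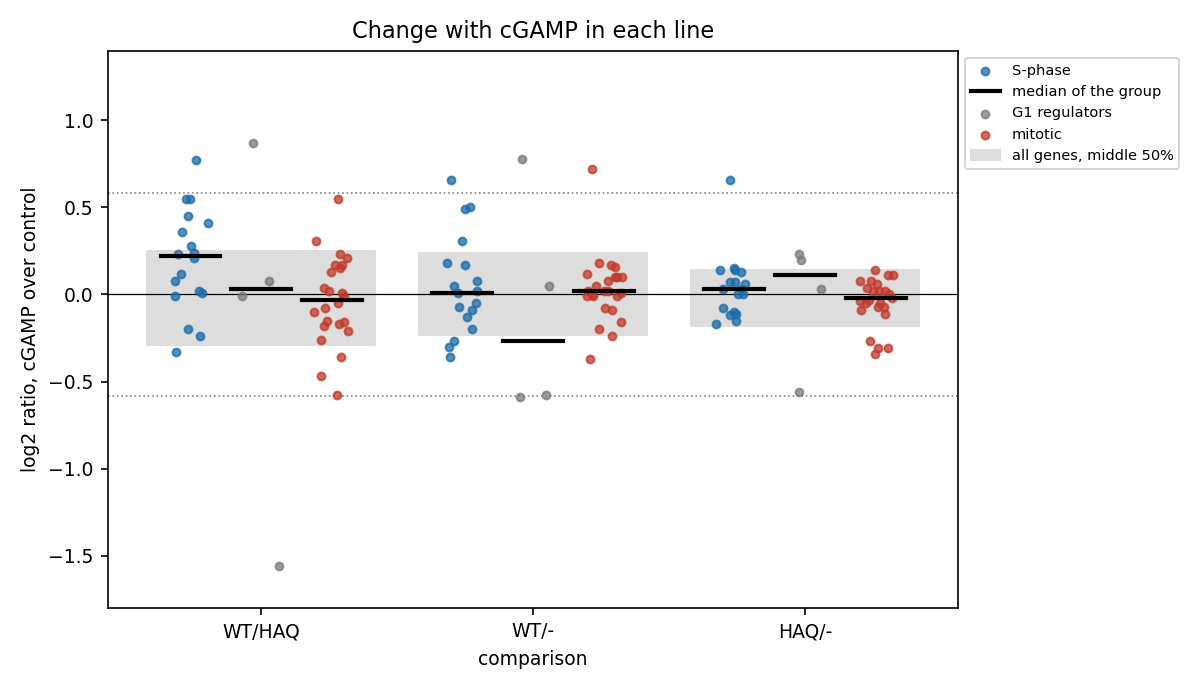
Log2 ratio of cGAMP over control (y axis) in each line (x axis), 1 point per gene, with the median of each role as a black bar, the middle 50% of all genes in grey and dotted lines at 1.5-fold. The S-phase median is 0.22 in WT/HAQ and 0.01 and 0.03 in the edited lines, and the lowest point is MYC in WT/HAQ at -1.56.

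The 46 genes also differed in level. Per kilobase of the canonical transcript, which allows levels to be compared between genes, CCND1 was the most abundant with a mean of 1797 normalized counts per kb, followed by CDC20 with 856.7, PCNA with 854.6 and TOP2A with 833.6. The lowest were CCNE2 with 37.9 and GINS2 with 48.4. The scale of the group thus runs from cyclin E2 at the bottom to cyclin D1 at the top.

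**Figure D4:**
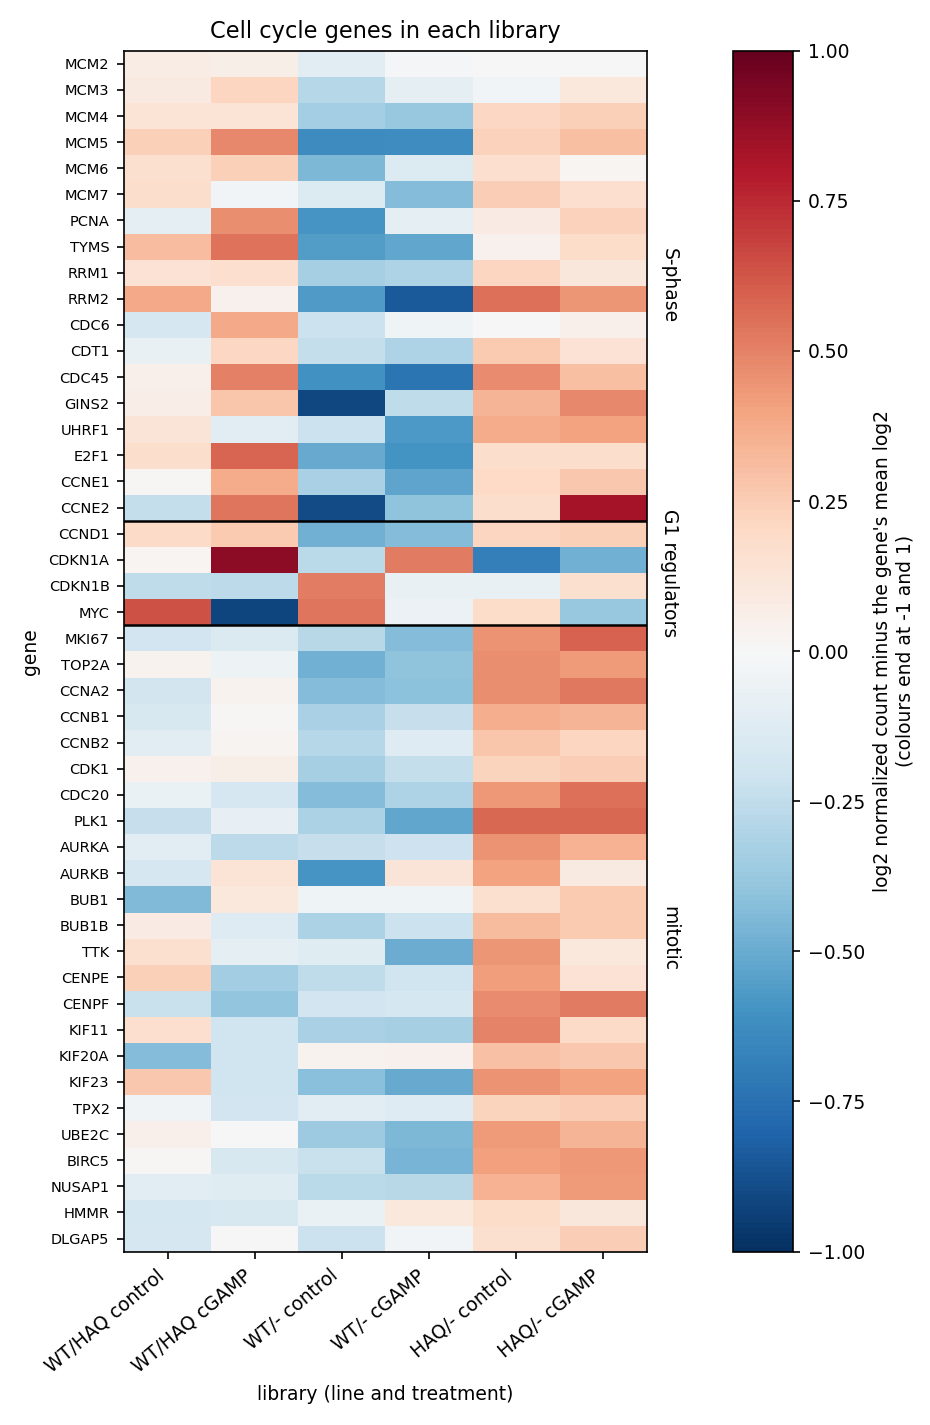
Log2 normalized count of each of the 46 genes (rows, by role) in each of the 6 libraries (columns), as the difference from the gene's own mean over the libraries, with red above and blue below. The WT/- columns are mostly blue for the S-phase genes and the HAQ/- columns are mostly red for the mitotic genes, and MYC and CDKN1A differ between control and cGAMP columns in WT/HAQ.

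The minichromosome maintenance proteins form the replicative helicase. MCM2 stood at 921 normalized counts in WT/HAQ control and 914 with cGAMP, at 816 and 864 in WT/-, and at 875 and 877 in HAQ/-. It was thus nearly level over all 6 libraries, and neither edgeR nor DESeq2 called it in any comparison. MCM5 stood at 817 and 963 in WT/HAQ, 446 and 449 in WT/-, and 812 and 854 in HAQ/-. Both WT/- libraries lay below the 4 others, and edgeR gave a log2 difference of -0.99 (SE 0.10, adjusted p = 0.0114) for WT/- over WT/HAQ and 0.89 (SE 0.10, adjusted p = 0.00769) for HAQ/- over WT/-. MCM3, MCM4, MCM6 and MCM7 were also lower in WT/- control than in either other control library, with log2 ratios of WT/- over WT/HAQ from -0.61 for MCM6 to -0.31 for MCM7.

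Ribonucleotide reductase and thymidylate synthase supply nucleotides for replication. RRM2, the regulatory subunit of ribonucleotide reductase, stood at 1273 in WT/HAQ control and 1011 with cGAMP, at 662 and 549 in WT/-, and at 1435 and 1332 in HAQ/-. WT/- was the lowest line and the cGAMP library was the lower in each line. The edgeR adjusted p of HAQ/- over WT/- was 0.00411, the smallest of the 46 genes in that comparison, with log2 ratios of 1.12 in the control and 1.28 in the cGAMP libraries. The log2 difference of WT/- over WT/HAQ was -0.91 (SE 0.10, edgeR adjusted p = 0.013, and 9.19e-06 to 0.0737 over the alternatives). Its mean log2 fold with cGAMP over the lines was -0.24 (edgeR adjusted p = 0.144, and 0.0764 to 0.934 over the alternatives). TYMS, which makes thymidylate, was lower in WT/- than in WT/HAQ by edgeR with a log2 difference of -0.96 (SE 0.09, adjusted p = 0.0105). RRM1, the catalytic subunit, had -0.48 (SE 0.08, adjusted p = 0.0358, and 0.0132 to 0.0742 over the alternatives). Without the treatment term the calls of RRM2 and RRM1 were lost, and that of TYMS was not.

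PCNA and CDC6 serve the fork and the origins. PCNA, the sliding clamp, stood at 1002 and 1467 in WT/HAQ, 706 and 996 in WT/-, and 1125 and 1247 in HAQ/-. The cGAMP library was the higher in each line, and the log2 fold was smallest in HAQ/- at 0.15 (95% counting interval 0.03 to 0.26), with 0.50 (0.35 to 0.64) in WT/- and 0.55 (0.44 to 0.66) in WT/HAQ. The edgeR adjusted p over the lines was 0.0964, and 0.00843 to 0.585 over the alternatives. CDC6, which loads the helicase at origins, stood at 351 and 512 in WT/HAQ, 341 and 383 in WT/-, and 393 and 408 in HAQ/-. Its cGAMP library in WT/HAQ was the highest of the 6, with a log2 fold of 0.55 (0.36 to 0.73), while the edgeR adjusted p over the lines was 0.254, and 0.135 to 0.698 over the alternatives.

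CDC45 and GINS2, partners of the helicase at the moving fork, had wide ranges of control level over the lines, at 1.08 and 1.25 on the log2 scale. CDC45 stood at 126 and 173 in WT/HAQ, 80.3 and 73.5 in WT/-, and 169 and 150 in HAQ/-. GINS2 stood at 127 and 147 in WT/HAQ, 64.4 and 102 in WT/-, and 154 and 170 in HAQ/-. For both genes WT/- was the lowest line. GINS2 had the largest log2 fold of the S-phase genes in WT/-, at 0.66 (0.19 to 1.12). CDT1, the licensing factor, and UHRF1, which guides maintenance DNA methylation, had control ratios of WT/- over WT/HAQ of -0.17 and -0.34.

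E2F1 was likewise lowest in WT/-. This transcription factor of S-phase entry stood at 309 and 411 in WT/HAQ, 193 and 182 in WT/-, and 311 and 310 in HAQ/-. The control libraries of WT/HAQ and HAQ/- were level, and the WT/HAQ cGAMP library was the highest. Its log2 fold with cGAMP was 0.41 in WT/HAQ (counting interval 0.21 to 0.61). The intervals of the edited lines included 0, with -0.09 for WT/- (-0.40 to 0.22) and 0.00 for HAQ/- (-0.23 to 0.22). Between the lines the log2 difference of WT/- over WT/HAQ was -0.93 (SE 0.16, edgeR adjusted p = 0.0337, and 0.00765 to 0.072 over the alternatives), a call that was lost without the treatment term.

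The E-type cyclins activate CDK2 at the start of S phase. CCNE1 stood at 151 and 194 in WT/HAQ, 120 and 104 in WT/-, and 172 and 181 in HAQ/-. CCNE2 stood at 79.5 and 136 in WT/HAQ, 50.4 and 70.8 in WT/-, and 106 and 166 in HAQ/-. CCNE2 was the higher with cGAMP in every line, by log2 folds of 0.77, 0.49 and 0.66, of which that in WT/- had a counting interval that included 0 (-0.05 to 1.03), and its mean of 0.64 was the highest of the 46 genes. The edgeR adjusted p was 0.0787, and 0.066 to 0.622 over the alternatives, and the low counts leave wide intervals.

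The G1 regulators did not move together. CCND1, cyclin D1, stood at 8482 and 8937 in WT/HAQ, 5322 and 5519 in WT/-, and 8638 and 8792 in HAQ/-. WT/- was the low line under both treatments, with a log2 difference from WT/HAQ of -0.68 (SE 0.08, edgeR adjusted p = 0.0139). With cGAMP its log2 folds were 0.08, 0.05 and 0.03. CDKN1B stood at 282 and 279 in WT/HAQ, 479 and 319 in WT/-, and 318 and 374 in HAQ/-. Its highest value was in WT/- control, and no edgeR comparison of lines called it.

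Of the 46 genes, MYC had the lowest mean log2 fold with cGAMP over the lines, at -0.90, and CDKN1A had 0.62, next to the highest. MYC, a transcription factor of growth and division, stood at 3505 in WT/HAQ control and 1188 with cGAMP, at 3268 and 2165 in WT/-, and at 2549 and 1730 in HAQ/-. Each cGAMP library was below all 3 control libraries. The log2 fold was -1.56 in WT/HAQ (-1.65 to -1.47), -0.59 in WT/- (-0.68 to -0.51) and -0.56 in HAQ/- (-0.65 to -0.47), each with its counting interval. The edgeR estimate over the lines was -0.90 (SE 0.22, adjusted p = 0.0861), with adjusted p from 0.00213 to 0.388 over the alternatives.

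CDKN1A stood at 1384 in WT/HAQ control and 2535 with cGAMP, at 1132 and 1950 in WT/-, and at 850 and 975 in HAQ/-. The cGAMP libraries of the lines with a WT allele were the highest of the 6, and both HAQ/- libraries were the lowest. The log2 folds were 0.87 (0.78 to 0.96), 0.78 (0.67 to 0.89) and 0.20 (0.07 to 0.33). The edgeR estimate over the lines was 0.62 (SE 0.15, adjusted p = 0.0823), with adjusted p from 0.000835 to 0.546 over the alternatives. For HAQ/- over WT/HAQ its log2 difference was -1.03 (SE 0.18, edgeR adjusted p = 0.0749, and 0.000463 to 0.423 over the alternatives), while DESeq2 called it lower.

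**Figure D5:**
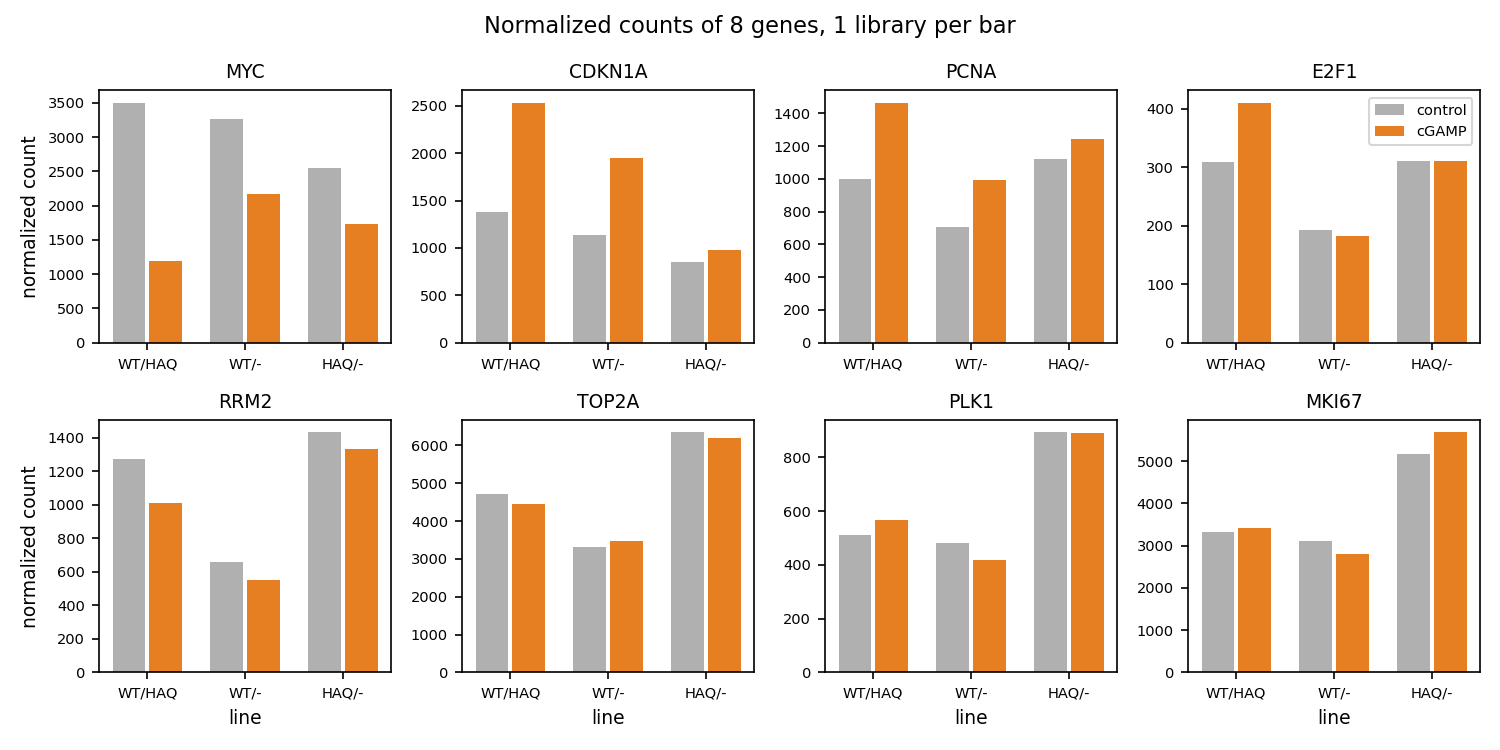
Normalized counts (y axes, from 0) of 8 cell cycle genes in each line (x axes), 1 bar per library, control in grey and cGAMP in orange, with no replicates. MYC is lower with cGAMP in each line, CDKN1A reaches 2535 in WT/HAQ with cGAMP, RRM2 is lowest in WT/- and PLK1 and MKI67 are highest in HAQ/-.

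MKI67 and TOP2A act on mitotic chromosomes. MKI67, the proliferation antigen Ki-67 that coats them, stood at 3315 and 3416 in WT/HAQ, 3119 and 2797 in WT/-, and 5159 and 5684 in HAQ/-. TOP2A, which untangles sister DNA, stood at 4711 and 4442 in WT/HAQ, 3301 and 3485 in WT/-, and 6352 and 6192 in HAQ/-. Both genes were above every other library in the HAQ/- pair. For HAQ/- over WT/- the edgeR log2 difference was 0.87 (SE 0.10, adjusted p = 0.00904) for MKI67 and 0.89 (SE 0.09, adjusted p = 0.00648) for TOP2A.

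The mitotic kinase CDK1 and its cyclin followed the same order. CCNB1, cyclin B1, stood at 1202 and 1349 in WT/HAQ, 1069 and 1143 in WT/-, and 1720 and 1699 in HAQ/-. CDK1 stood at 996 and 1003 in WT/HAQ, 767 and 820 in WT/-, and 1125 and 1142 in HAQ/-. Both were highest in HAQ/- and lowest in WT/-, with log2 differences of HAQ/- over WT/- of 0.63 (SE 0.09, edgeR adjusted p = 0.0131) and 0.51 (SE 0.08, adjusted p = 0.0173). CCNA2, cyclin A2, had a log2 difference of 0.91 (SE 0.09, adjusted p = 0.00702).

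PLK1 and AURKA, kinases of spindle assembly, were highest in HAQ/-. PLK1 stood at 510 and 566 in WT/HAQ, 482 and 418 in WT/-, and 894 and 892 in HAQ/-. AURKA stood at 462 and 416 in WT/HAQ, 426 and 433 in WT/-, and 682 and 634 in HAQ/-. For HAQ/- over WT/HAQ the edgeR log2 differences were 0.73 (SE 0.11, adjusted p = 0.0622) and 0.58 (SE 0.09, adjusted p = 0.0661), which missed the threshold. Over the alternatives the adjusted p ran from 0.00872 to 0.197 for PLK1 and from 0.0448 to 0.216 for AURKA. CENPF, a kinetochore protein, passed it with 0.80 (SE 0.09, adjusted p = 0.0366), and its adjusted p ran from 1.51e-05 to 0.189 over the alternatives.

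TTK and CENPE, which serve the spindle checkpoint and chromosome alignment, were among the genes with the lowest mean log2 fold with cGAMP, at -0.32 and -0.27. TTK stood at 366 and 306 in WT/HAQ, 301 and 232 in WT/-, and 444 and 351 in HAQ/-. CENPE stood at 614 and 411 in WT/HAQ, 438 and 454 in WT/-, and 695 and 575 in HAQ/-. TTK was the lower with cGAMP in every line (edgeR adjusted p = 0.0993, and 0.104 to 0.671 over the alternatives), while CENPE was so in 2 of the 3.

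The remaining mitotic genes were higher in HAQ/- control than in WT/- control without exception. Their log2 ratios ran from 0.20 for the checkpoint kinase BUB1 to 0.99 for AURKB, with CDC20, the activator of the anaphase-promoting complex, at 0.87, the motor KIF23 at 0.87, the motor KIF11 at 0.82 and the ubiquitin-conjugating enzyme UBE2C at 0.79. CCNB2, BUB1B, TPX2, BIRC5, NUSAP1, HMMR, DLGAP5 and KIF20A lay between 0.25 and 0.63. Of the 24 mitotic genes, 18 were higher in HAQ/- than in WT/- by edgeR, against 7.94% of all genes. None was lower, against 11.1% of all genes, and 6 did not pass.

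Other genes of the same processes, from lists by role, were also tested. At an unadjusted p under 0.05 the test between lines had 16.2% of all genes higher and 20% lower in HAQ/- than in WT/-. It had 15.4% higher and 13.4% lower in WT/- than in WT/HAQ, and 8.03% higher and 10.7% lower in HAQ/- than in WT/HAQ. The DESeq2 shares in the same order were 5.9% and 9.48%, 5.26% and 3.44%, and 1.28% and 2.67%. Of 50 other replication genes, 12 were higher in HAQ/- than in WT/- by edgeR, against 7.94% of all genes, and 0 were lower, against 11.1%. At the unadjusted p 24 were higher and 1 was lower, and DESeq2 called 7 higher and 0 lower. In WT/- 6 of the 50 were lower than in WT/HAQ (3.81% of all genes) and 0 higher (4.99%). The unadjusted p gave 28 lower and 1 higher, and DESeq2 called 1 lower and 0 higher. Between HAQ/- and WT/HAQ edgeR called 0 of the 50 in either direction (0.377% of all genes higher, 0.846% lower). At the unadjusted p 2 were higher in HAQ/- and 0 lower, DESeq2 called 0 in either direction, and the median log2 difference was -0.01, the same as over all genes.

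Of 63 other mitotic genes, 42 were higher in HAQ/- than in WT/- by edgeR (7.94% of all genes) and 0 lower (11.1%). The unadjusted p gave 49 higher and 1 lower, and DESeq2 called 30 higher and 0 lower. In WT/- 7 of the 63 were lower than in WT/HAQ (3.81% of all genes) and 0 higher (4.99%). The unadjusted p gave 27 lower and 0 higher, and DESeq2 called 7 lower and 0 higher. Between HAQ/- and WT/HAQ edgeR called 0 of the 63 in either direction. At the unadjusted p 30 were higher in HAQ/- and 0 lower, DESeq2 called 3 higher and 0 lower, and the median log2 difference was 0.26, against -0.01 over all genes. The medians of the replication and the mitotic list for HAQ/- over WT/- were 0.31 and 0.49, against -0.02 over all genes.

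With cGAMP, edgeR called 0 of the 50 replication genes in either direction, where 7 were higher and 1 lower at the unadjusted p (11.6% and 13.6% of all genes) and DESeq2 called 1 higher and 0 lower (5.2% and 3.93%). Of the 63 mitotic genes 1 was lower by edgeR (0.959% of all genes) and 0 higher (2.27%), where at the unadjusted p 5 were higher and 8 lower, both shares of the list below the 11.6% and 13.6% of all genes. DESeq2 called 2 higher and 2 lower (5.2% and 3.93% of all genes). The 1 gene was HJURP, a chaperone of centromeric histone (log2 difference -0.50, edgeR adjusted p = 0.046, and 0.0193 to 0.679 over the alternatives).

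The genes named next are the 3 of each list with the largest mean log2 fold with cGAMP, in either direction. Their large folds follow from this choice and do not describe the lists. The median log2 folds of the replication and the mitotic list lay between -0.07 and 0.11 in every line. BRCA2, of homologous recombination, had log2 folds of 0.76 in HAQ/-, 1.56 in WT/HAQ and 2.11 in WT/- (edgeR adjusted p = 0.0536, and 9.79e-06 to 0.339 over the alternatives). In the order WT/HAQ, WT/- and HAQ/-, ORC6 of the origin recognition complex had 0.77, 0.72 and 0.11, and POLE2, a polymerase epsilon subunit, had 0.29, 1.16 and 0.11. In all 3 genes HAQ/- had the smallest fold, but the difference between lines was not tested. For ORC6 the edgeR adjusted p with cGAMP was 0.119, and 0.00664 to 0.445 over the alternatives. POLE2 had an edgeR estimate of 0.47 (SE 0.30, adjusted p = 0.396, and 0.329 to 0.803 over the alternatives). KIF20B, a mitotic kinesin, had 2.18, 2.03 and 0.20, CENPU, a centromere protein, had 1.01, 1.09 and -0.10, and KIF18A, a kinesin of chromosome alignment, had -0.92, -0.53 and -0.55.

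The RB and DREAM list had 19 genes, of which edgeR called 0 in either direction with cGAMP. At the unadjusted p 3 were higher and 3 lower, shares near the 11.6% and 13.6% of all genes, and DESeq2 called 1 higher and 2 lower (5.2% and 3.93% of all genes). LIN54 and LIN52, subunits of the DREAM complex, had log2 folds of 2.25 and 2.10 in WT/HAQ, 2.90 and 1.96 in WT/-, and 0.03 and 0.44 in HAQ/-. E2F7, a repressor of the E2F family, had -1.71, -0.86 and -0.24. Between lines edgeR called 1 of the 19 higher in HAQ/- than in WT/-, a share below the 7.94% of all genes, and 0 lower, where 4 were higher and 2 lower at the unadjusted p and DESeq2 called 1 higher and 0 lower. The 1 gene was LIN9, another subunit of the complex (log2 difference 1.02, edgeR adjusted p = 0.0208, and 0.0151 to 0.0396 over the alternatives). In the comparison of each clone with WT/HAQ edgeR and DESeq2 called 0 of the 19 in either direction, with 2 higher and 1 lower at the unadjusted p in both comparisons.

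Of 22 cyclin-dependent kinases, cyclins, CDC25 phosphatases and inhibitors, 19 were analysed, and edgeR called 0 in either direction with cGAMP, where 5 were higher and 4 lower at the unadjusted p (11.6% and 13.6% of all genes) and DESeq2 called 0 higher and 1 lower (5.2% and 3.93%). CDKN2C, the inhibitor p18 of CDK4 and CDK6, stood at 262 and 2918 normalized counts in WT/HAQ, 317 and 2348 in WT/-, and 354 and 425 in HAQ/-. The lines with a WT allele had the high cGAMP values, with log2 folds of 3.48 and 2.89 against 0.26 in HAQ/- (edgeR adjusted p = 0.117, and 1.72e-05 to 0.459 over the alternatives). CDKN2D, the inhibitor p19, had 0.81, 0.61 and 0.04, and the kinase CDK6 had 0.62, 0.83 and 0.05.

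Between HAQ/- and WT/-, edgeR called 3 of these 19 genes higher in HAQ/- (7.94% of all genes) and 1 lower (11.1%), and DESeq2 called 2 higher and 1 lower. Those higher were the cyclin CCNF, with a log2 difference of 1.21 (edgeR adjusted p = 0.00721), and PKMYT1 and WEE1, kinases that inhibit CDK1, with 1.08 (adjusted p = 0.00782) and 0.45 (adjusted p = 0.029). CDK6 was the lower one, with -0.99 (edgeR adjusted p = 0.029). Over the alternatives the highest adjusted p was 0.0241 for CCNF and 0.0232 for PKMYT1, but 0.124 for WEE1 and 0.143 for CDK6. In WT/- the phosphatase CDC25B was higher than in WT/HAQ by 0.46 on the log2 scale (edgeR adjusted p = 0.0445) and PKMYT1 was lower, with -0.74 (adjusted p = 0.0289), against 4.99% and 3.81% of all genes, and DESeq2 called 1 higher and 1 lower. Over the alternatives the highest adjusted p was 0.371 for CDC25B and 0.0657 for PKMYT1. Between HAQ/- and WT/HAQ edgeR called 0 of the 19 in either direction, where 5 were higher and 1 lower at the unadjusted p and DESeq2 called 1 higher and 1 lower.

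Of 9 partners and antagonists of MYC, 1 was higher with cGAMP by edgeR (2.27% of all genes), MXD1, which competes with MYC for its partner MAX. None of the 9 was lower by edgeR (0.959% of all genes), while 2 were lower at the unadjusted p (13.6%) and DESeq2 called 1 higher and 1 lower (5.2% and 3.93% of all genes). MXD1 stood at 233 and 9864 in WT/HAQ, 229 and 6784 in WT/-, and 96.8 and 553 in HAQ/-. It was thus higher with cGAMP in each line while MYC was lower, with log2 folds of 5.40, 4.89 and 2.51 (edgeR log2 difference 4.40, SE 0.61, adjusted p = 0.0345, and 2.03e-06 to 0.344 over the alternatives). MLXIP, which pairs with MLX, had log2 folds of -0.77, -0.43 and -0.22, and MGA, which pairs with MAX, had -0.60, -0.27 and -0.31. Between lines edgeR called 1 of the 9, MNT, another partner of MAX, lower in HAQ/- than in WT/- (11.1% of all genes) and 0 higher, where 1 was higher and 3 lower at the unadjusted p. Its log2 difference was -0.52 (edgeR adjusted p = 0.0473, and 0.0447 to 0.0953 over the alternatives). DESeq2 called 0 of the 9 in any comparison of lines. With WT/HAQ as the reference edgeR called 0 in either clone, where 3 were higher and 0 lower in WT/- and 2 higher and 1 lower in HAQ/- at the unadjusted p.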

How the data were processed

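RNA of 6 SKOV3 libraries, 1 per line and treatment, was read from the authors' deposited table of expected counts, which are estimated counts per Ensembl gene without normalization. The submitters' processing notes name STAR, RSEM and GRCh38/hg38, and versions and annotation are not given in the sources used here. Expected counts were rounded to whole counts, and a gene was kept if its counts averaged 10 or more. Libraries were scaled by TMM (factors from 0.940 to 1.052), folds used a floor of 3 counts, and 95% Wilson intervals cover counting error only. Tests used edgeR 4.0.16 in R 4.3.3 (quasi-likelihood, line and treatment as terms, Benjamini-Hochberg over all 15126 genes), with DESeq2 1.42.0 as an alternative. With 1 library per group, p-values rest on the additive model. They measure the spread between these libraries that the line and treatment terms leave, not a spread between replicates. That spread may be technical, and it also holds any difference between lines in the response to cGAMP.

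The cell cycle genes and the other lists were chosen with earlier results of these data known. Values in every library are given for a set of 17 named genes, for the 4 genes with the highest and the 4 with the lowest mean cGAMP fold and for the 3 with the widest range of control levels, and other lists give the 3 genes with the largest mean fold. In addition, 1 gene and 1 list of genes are not reported here. MCM5, TYMS, RRM1, CENPF and other genes named beyond this were chosen after their values were seen. Transcript lengths are of GENCODE 44, and Python 3.11.15 was used. Alternatives were other scalings, filters, floors, folds, tests and leaving out each line.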

Additional observations from a re-analysis of the deposited data

Results flagged for a closer look

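In 4 cell cycle genes the cGAMP folds of 2 lines pointed in opposite directions with counting intervals that exclude no change. The log2 fold of CDKN1B was -0.58 in WT/- and 0.23 in HAQ/-. That of MKI67 was -0.16 in WT/- and 0.14 in HAQ/-, and that of TOP2A was -0.08 in WT/HAQ and 0.08 in WT/-. That of AURKB was 0.31 in WT/HAQ and 0.72 in WT/- but -0.31 in HAQ/-. Some of these intervals ended close to 0, such as 0.01 to 0.15 for TOP2A in WT/- and 0.00 to 0.62 for AURKB in WT/HAQ. Scaling by total counts shifted the median of all genes by -0.06 in WT/-. Each value rests on 1 library per line and treatment, and the difference between lines was not tested.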

How the results depend on the processing

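Over the scalings, filters and floors run, the control medians of HAQ/- over WT/- ran from 0.58 to 0.69 for the S-phase and from 0.66 to 0.77 for the mitotic genes, with that of all genes from -0.01 to 0.10. Those of HAQ/- over WT/HAQ ran from 0.08 to 0.19 and from 0.42 to 0.48, with all genes from -0.02 to 0.05. For cGAMP in WT/- both medians changed sign, from -0.05 to 0.03 and from -0.04 to 0.03. Without the treatment term edgeR called 16 of the 46 genes higher in HAQ/- than in WT/-, 0 higher in HAQ/- than in WT/HAQ and 3 lower in WT/- than in WT/HAQ. Of all genes these were 2.25%, 0.0397% and 0.873%. DESeq2 called 8 higher and 1 lower in HAQ/- than in WT/HAQ, 1 lower in HAQ/- than in WT/-, and 1 higher and 1 lower with cGAMP (1.28%, 2.67%, 9.48%, 5.2% and 3.93% of all genes). A mean count of at least 1 gave 4 higher and 1 lower in HAQ/- than in WT/HAQ and 1 lower in HAQ/- than in WT/- (0.528%, 1.23% and 7.54%). Leaving out a line gave 0 to 2 higher and 0 to 1 lower with cGAMP, 0 higher in HAQ/- than in WT/HAQ, 1 lower in HAQ/- than in WT/- and 16 lower in WT/- than in WT/HAQ, against 0% to 8.5%, 0% to 8.65%, 0%, 10.1% and 7.09% of all genes. With 2 lines left the fit has 1 residual degree of freedom.

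At 1.2-fold the control libraries of WT/- and WT/HAQ had 27 genes lower and 3 higher in WT/- (24.9% and 27.5% of all genes), those of HAQ/- and WT/HAQ had 23 higher and 3 lower in HAQ/- (19% and 21.1%), and HAQ/- was below WT/- for 3 (29.1%). With cGAMP, 10 were raised and 5 lowered in WT/HAQ (24.2% and 26.6%), 6 and 6 in WT/- (23% and 22.5%), and 5 lowered in HAQ/- (17.3%). At 2-fold 4 were higher in HAQ/- than in WT/- (5.05%) and 0 lower (7.62%), and 0 differed in either direction between a clone and WT/HAQ (2.68% to 5.72%). At this size 0 were raised with cGAMP in any line (3.12% to 7.38%) and 0 lowered in WT/- (3.48%). For cGAMP in WT/-, 2 genes were lowered with DESeq2 size factors, total counts or a mean of at least 1 (9.07%, 10.4% and 10.8% of all genes), and 0 with a mean of at least 50 (5.96%). In WT/HAQ 2 were lowered with total counts (13.1%) and 2 after thinning (12.3%), which also raised 4 (12.8%). HAQ/- control was below WT/- control for 0 genes with total counts, thinning or a mean of at least 1 or 50 (12.5%, 15%, 17.7% and 11.7%). The causes were not tested. Low counts limit CCNE2, GINS2 and CDC45 most.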
